A study of Mus musculus with 30 samples.

Results

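The glucocorticoid receptor and the proteins that work directly around it were followed through 10 genes. These encode 2 steroid receptors (Nr3c1, Nr3c2), 2 enzymes that activate or inactivate glucocorticoids (Hsd11b1, Hsd11b2), 3 receptor chaperones (Fkbp4, Ptges3, Stip1) and 3 coregulators (Ncoa1, Ncoa2, Ncor1). The genes were chosen by name, as the rows of the count table whose gene name is on that list, which gave 10 of the 49315 genes in the table. All 10 were among the 17774 genes with enough counts to be tested.

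The series asks how 4T1 cells, a mammary carcinoma line that arose in a BALB/c mouse, differ between a primary tumour and 2 stages in the lung, and its title names glucocorticoids. The cells carried tdTomato, a red fluorescent protein, and every library came from a female host, from tissue digested with collagenase and cleared of red cells, and from single cells sorted as DAPI-, CD45- and tdTomato+. The 30 libraries formed 6 groups of 5, from BALB/c hosts, which have an immune system matched to the line, or from NSG hosts, which have no T, B or NK cells. Tumours grew from 200000 cells put into the mammary fat pad and were collected on days 21 and 22 from BALB/c mice and on day 10 from NSG mice. For lung samples, 500000 cells were given by tail vein. The groups called DTC (not spelled out in the labels) were collected on day 7 in either strain, and the groups called macro-met on days 21 and 23 from BALB/c mice and days 19 and 20 from NSG mice. Tumours and lung groups thus differ in organ, in route and in the number of cells given, and tumours and macro-mets of the strains also in the day of collection, so these cannot be told apart from stage or strain. Within the macro-met groups library 5 alone came from the later day, which is too few for a value by day. Libraries are numbered 1 to 5 within a group in the order of the series. Each title also opens with a code of a number and letters that the labels do not explain: libraries of a group share 1 or 2 such numbers and no number occurs in more than 1 group, so whatever the numbers stand for cannot be told apart from the groups. The labels do not say whether libraries came from separate animals, so p-values measure the spread between these libraries, which may be technical.

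Without hormone, the glucocorticoid receptor is held in the cytoplasm in a state ready to bind steroid by the chaperone HSP90 and its partners. On binding corticosterone, the main glucocorticoid of the mouse, it moves to the nucleus, binds DNA and recruits coactivators or corepressors. How much active steroid a cell sees also depends on the 11-beta-hydroxysteroid dehydrogenases, since HSD11B1 regenerates corticosterone from its inactive 11-keto form and HSD11B2 does the reverse.

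Total counts ran from 29832098 to 65621525 per library, and correlations of log2 CPM (counts scaled to a common library total) within groups ran from 0.8918 to 0.9867. Carcinoma epithelium markers were abundant everywhere: the 8 genes of that list summed to 4480 CPM or more in every library, with Krt8 at group means of 2684 to 4073 CPM. The leukocyte gene Ptprc had group means of 0.4409 to 2.175 CPM, and 10 lymphocyte markers summed to at most 8 CPM in any library. Myeloid markers were not as low throughout. Lyz2 averaged 183.5 CPM in BALB/c DTC and 5.557 to 35.12 in the other groups. In BALB/c DTC 1 and 2 the macrophage and monocyte markers summed to 711 and 231 CPM and the neutrophil markers to 60.9 and 35.6. A set of 12 lung epithelium markers, led by the surfactant gene Sftpc, summed to 12.2 to 61.1 CPM in BALB/c tumours and 13.2 to 25 in NSG tumours, where 3 of the 12 were at 0 in all 5 libraries. In the lung groups it summed to 88.3 to 3400 CPM (BALB/c DTC), 30.1 to 81.7 (BALB/c macro-mets), 27.6 to 61.6 (NSG DTC) and 18.6 to 41.6 (NSG macro-mets). BALB/c DTC libraries 1 and 2 stood apart with 3400 and 1460 CPM. Another 4 libraries had the fewest genes detected (BALB/c tumour 4, NSG tumours 2 and 3, NSG macro-met 3) and carried 166 to 790 CPM of 8 skeletal muscle markers. Across genes, the departure of a library from the mean of all libraries also followed the GC content of the gene. The rank correlation ran from -0.594 to -0.311 in NSG DTC, from 0.19 to 0.4 in NSG macro-mets and from -0.0947 to 0.442 in BALB/c DTC. With exonic length it ran from -0.204 to -0.0684 in BALB/c DTC and from 0.0833 to 0.253 in NSG DTC, and lay within -0.204 to 0.253 in every library. Because several of the genes described here are long or poor in GC (Nr3c1 has 7684 exonic bases with 42.2% GC, against medians of 3662 and 49.74% over tested genes), each comparison was also fitted with offsets that remove such trends, and those values are given where they change the picture.

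Levels below are CPM scaled by the TMM method, and changes are log2 fold changes ± SE from an edgeR quasi-likelihood fit to all 30 libraries. Calls rest on an adjusted p (Benjamini-Hochberg, over the 17774 tested genes) below 0.05. Rises, falls and steps name differences between separate groups, since lung cells were given by tail vein and did not come from these tumours. Per length, the chaperones were by far the most abundant of the 10: over all libraries, Stip1 averaged 493.6 TPM (a level corrected for gene length), Fkbp4 301.7 and Ptges3 210.6. Ncor1 averaged 21.1 TPM. The rest were low, with Nr3c1 at 8.92, Hsd11b2 at 8.68, Hsd11b1 at 7.03, Ncoa2 at 5.04, Ncoa1 at 4.86 and Nr3c2 at 1.02 TPM.

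**Figure D1:**
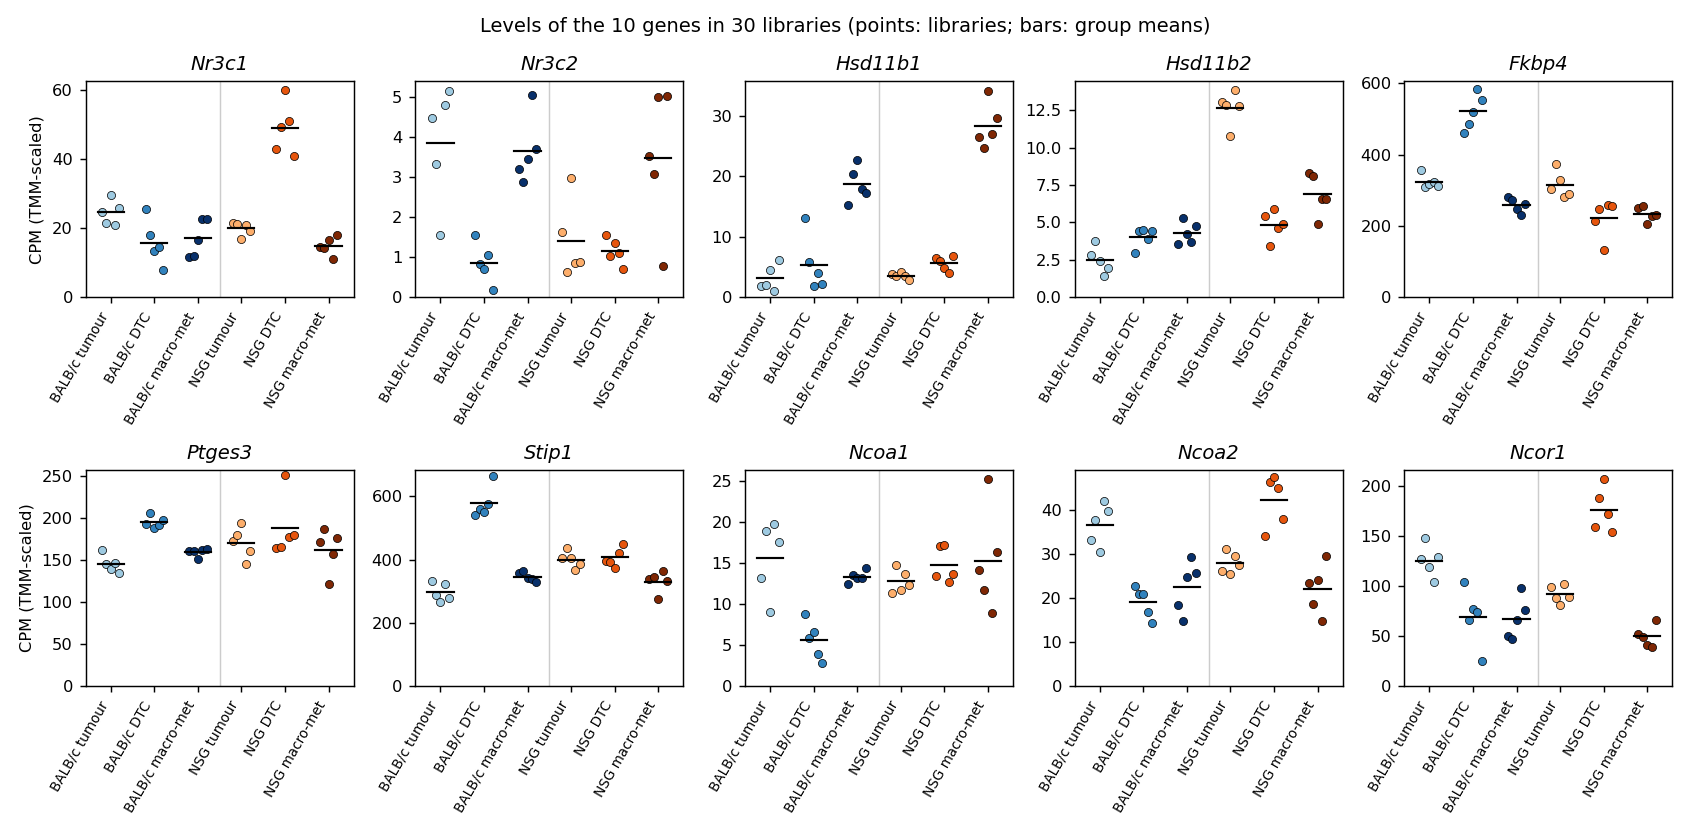
CPM of each of the 10 genes (y axis, 1 panel per gene, linear scale from 0) in the 30 libraries, grouped on the x axis by host strain and stage, with points for libraries and bars for group means. Nr3c1 and Ncor1 stand highest in NSG DTC, Fkbp4 and Stip1 in BALB/c DTC, Hsd11b1 in the macro-mets of either strain and Hsd11b2 in NSG tumours.

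In BALB/c hosts, 9 of the 10 genes were called between DTC and tumours, where 41.4% of all tested genes were called. Of these, 4 were higher in DTC (20.4% of all genes), namely Hsd11b2, Fkbp4, Ptges3 and Stip1, and 5 were lower (21% of all genes), namely the receptors and the coregulators Ncoa1, Ncoa2 and Ncor1. Between BALB/c macro-mets and DTC, 6 of the 10 were called (30.8% of all genes), with Nr3c2, Hsd11b1 and Ncoa1 higher (16.6%) and the 3 chaperones lower (14.2%). Between BALB/c macro-mets and tumours, 6 were called (37.8%), with Hsd11b1, Hsd11b2 and Stip1 higher (19.6%) and Fkbp4, Ncoa2 and Ncor1 lower (18.2%).

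In NSG hosts the same step from tumour to lung looked different. Between NSG DTC and NSG tumours, 5 of the 10 were called (25.5% of all genes), with Nr3c1, Ncoa2 and Ncor1 higher (16%) and Hsd11b2 and Fkbp4 lower (9.55%). NSG macro-mets against NSG DTC gave 7 calls (43.7%), with Nr3c2, Hsd11b1 and Hsd11b2 higher (21.3%) and Nr3c1, Stip1, Ncoa2 and Ncor1 lower (22.4%). NSG macro-mets against NSG tumours gave 6 (30.5%), with Nr3c2 and Hsd11b1 higher (16.9%) and Hsd11b2, Fkbp4, Stip1 and Ncor1 lower (13.6%). The 3 comparisons within a strain share their libraries in pairs, so they are not independent of each other.

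Between the strains, 3 of the 10 were called in tumours (23.6% of all genes): Nr3c2 was higher in BALB/c tumours (11%), and Hsd11b2 and Stip1 were lower there (12.6%). In DTC, 6 were called (38.8%), with Fkbp4 and Stip1 higher in BALB/c DTC (17.1%) and Nr3c1, Ncoa1, Ncoa2 and Ncor1 lower (21.7%). Fits of the tumour groups only called Ncoa2 (0.42, adjusted p = 0.0216) and Ncor1 (0.47, adjusted p = 0.00385) as well. In macro-mets 0 of the 10 were called by edgeR (2.64% of all genes, with 1.88% higher and 0.76% lower in BALB/c macro-mets). There 1 of the 10, Hsd11b2, had an unadjusted p under 0.05, and Hsd11b2 was called by DESeq2 (-0.67, adjusted p = 0.0169) and without the gene-poor libraries (-0.76, adjusted p = 0.0205). DESeq2 called 5.2% of all genes between the macro-met groups. Whether a step differed between the strains was tested with an interaction term, the BALB/c change minus the NSG change. From tumour to DTC it was called for 8 of the 10 (33.4% of all genes), positive for Hsd11b2, Fkbp4 and Stip1 (15%) and negative for the receptors and all 3 coregulators (18.4%). From DTC to macro-met it was called for 6 (28.1%), positive for Nr3c1, Ncoa1, Ncoa2 and Ncor1 (16.6%) and negative for Fkbp4 and Stip1 (11.6%). From tumour to macro-met it was called for 2 (5.23%), Hsd11b2 and Stip1, either of them positive (3.53%) and none negative (1.7%).

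The balance of calls over all genes depended on how libraries were scaled, most of all where NSG DTC enter. From NSG tumour to DTC, 2840 genes were higher and 1698 lower, against 1354 and 3029 with the GC and length offsets, which moved the median change of all genes from 0.06 to -0.11, and 5015 and 786 on TPM, which moved it to 0.17. Between BALB/c and NSG DTC, 3048 were higher and 3851 lower, against 2754 and 2088 with offsets and 1598 and 5718 on TPM (median -0.15). For the interaction from tumour to DTC, 2670 positive and 3274 negative calls became 3199 and 1758 with offsets (median from -0.05 to 0.09) and 1396 and 4464 on TPM (-0.16). For that from DTC to macro-met, 2942 and 2060 became 1319 and 1669, and 4244 and 760 (0.15). From NSG DTC to macro-met, 3778 and 3987 became 4130 and 2793, and 2767 and 5038, and between the tumour groups 1956 and 2232 became 1619 and 3050 with offsets (median from 0.08 to -0.03). On TPM, 2949 and 2522 became 3773 and 1749 from BALB/c DTC to macro-met, and 3483 and 3243 became 4267 and 2451 from BALB/c tumour to macro-met.

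**Figure D2:**
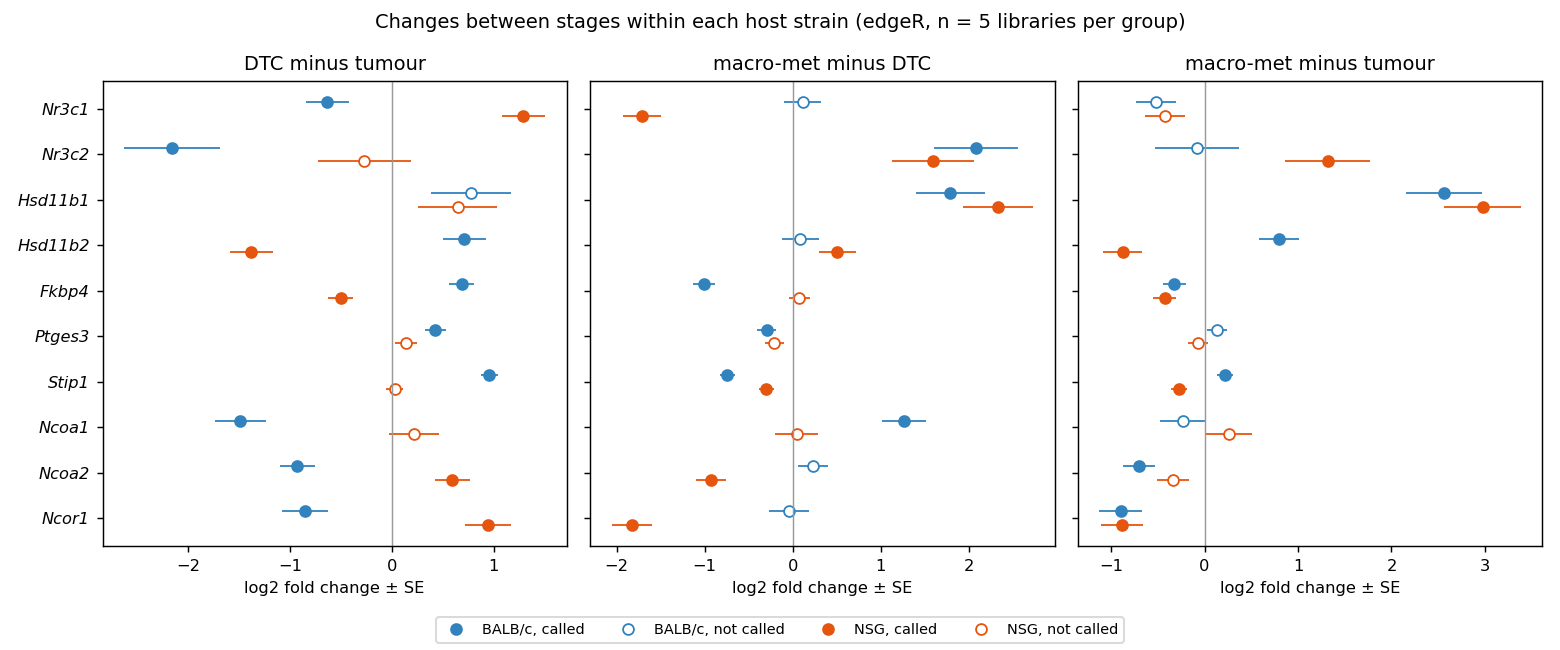
Log2 fold change ± SE (x axis) of the 10 genes (y axis) for each step between stages, 1 panel per step, with BALB/c hosts in blue and NSG hosts in orange, and filled points for changes called at an adjusted p under 0.05. From tumour to DTC, Nr3c1, Ncoa2 and Ncor1 lie left of 0 in BALB/c and right of 0 in NSG hosts, while Hsd11b2 and Fkbp4 lie the other way round.

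Nr3c1 (ENSMUSG00000024431, minus strand of chr18:39410545-39519421 on GRCm38) encodes the glucocorticoid receptor itself. In NSG DTC it stood at 43.1, 49.4, 60.1, 51.2 and 41.0 CPM in libraries 1 to 5. NSG tumours held 21.6, 21.2, 16.9, 21.0 and 19.3 CPM, and NSG macro-mets 14.5, 14.3, 16.7, 11.1 and 18.1 CPM. All 5 NSG DTC libraries therefore lay above every other library of the series, of which the highest was a BALB/c tumour at 29.8 CPM. The BALB/c tumours held 24.8, 21.7, 29.8, 20.9 and 26.0 CPM. The DTC held 25.6, 17.9, 13.3, 14.7 and 7.80 CPM and overlapped the tumours through library 1, which was also the richest in lung markers. The macro-mets held 11.7, 11.9, 16.7, 22.8 and 22.6 CPM, and their libraries 4 and 5 lay within the range of the tumours.

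In NSG hosts Nr3c1 rose 2.45-fold from tumour to DTC (1.29 ± 0.22, edgeR adjusted p = 6.43e-05) and fell 3.27-fold from DTC to macro-met (-1.71 ± 0.22, adjusted p = 1.97e-07). In BALB/c hosts it fell 1.55-fold from tumour to DTC (-0.63 ± 0.21, adjusted p = 0.0182) and then differed by less than the test could call (0.11, adjusted p = 0.737). BALB/c DTC held 3.09-fold less than NSG DTC (-1.63 ± 0.22, adjusted p = 1.14e-06). The strains differed in the step to DTC (-1.93 ± 0.30, adjusted p = 1.88e-05) and in the step onward (1.82 ± 0.30, adjusted p = 0.000108). In a bulk sample, fewer cells that express a gene and less RNA of it per cell cannot be told apart. With GC and length offsets the NSG rise was 0.55 (adjusted p = 0.0019), the NSG fall -0.60 (adjusted p = 0.000307), the difference between the DTC groups -0.75 (adjusted p = 4.86e-05), the interactions -0.74 (adjusted p = 0.00233) and 0.79 (adjusted p = 0.00331), and the BALB/c fall was no longer called (-0.20, adjusted p = 0.235), nor was it in a fit of those groups only (-0.63, adjusted p = 0.0831). The BALB/c fall was -1.06 (adjusted p = 0.000433) without the 2 lung-rich libraries. It was -1.99 (adjusted p = 7.57e-05) with a term for the mean level of 23 lung epithelium and endothelium markers. With that term the NSG rise was 0.39 and not called (adjusted p = 0.452). The summed lung epithelium markers of DTC and tumours overlapped in neither strain. What this term changes in the step to DTC, here and below, therefore cannot be fully told apart from the step itself. Between macro-mets and tumours Nr3c1 missed the call in BALB/c hosts (-0.52 ± 0.21, adjusted p = 0.0535), where RLE scaling (-0.58, adjusted p = 0.0367), DESeq2 (-0.58, adjusted p = 0.0261), a fit of those groups only (-0.57, adjusted p = 0.0495) and leaving out BALB/c tumour 4 or BALB/c macro-met 4 or 5 gave a call and the offsets gave -0.01. It also missed the call in NSG hosts (-0.42, adjusted p = 0.141), where a fit of those groups only gave one (-0.47, adjusted p = 0.0176). With the lung marker term the macro-met values were -1.16 against BALB/c tumours (adjusted p = 0.000102), -1.11 against NSG tumours (adjusted p = 0.000405) and 0.83 against BALB/c DTC (adjusted p = 0.00694).

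**Figure D3:**
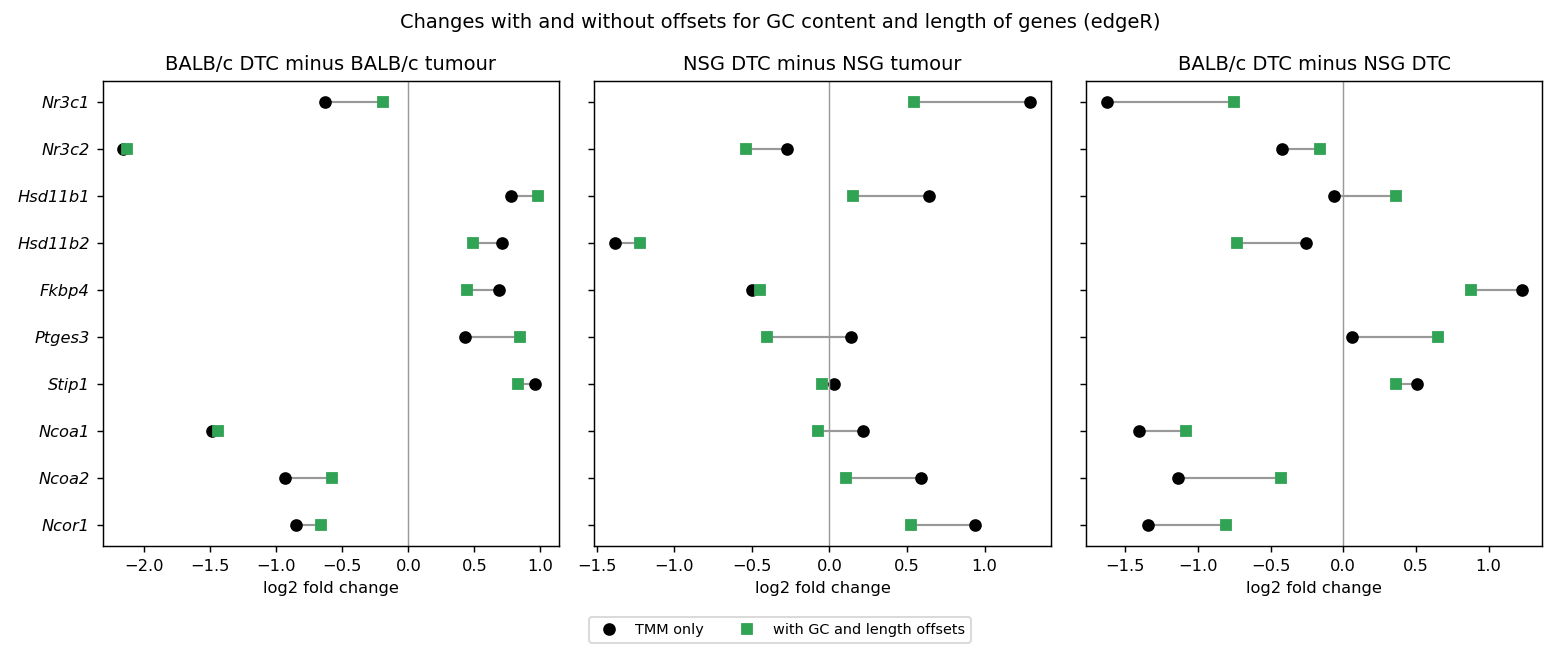
Log2 fold change of the 10 genes (y axis) in 3 comparisons with DTC, 1 panel each, from the fit with TMM scaling alone (black circles) and with offsets for GC content and length (green squares). The Nr3c1, Ncoa2 and Ncor1 values between NSG DTC and NSG tumours shrink toward 0 with the offsets (Nr3c1 from 1.29 to 0.55). Those of Nr3c2 and Ncoa1 between BALB/c DTC and BALB/c tumours barely move.

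Nr3c2 (ENSMUSG00000031618, plus strand of chr8:76899442-77245012) encodes the mineralocorticoid receptor, which binds glucocorticoids as well as aldosterone. It was the scarcest of the 10, with 11 to 310 counts per library. BALB/c DTC held 1.56, 0.824, 0.716, 1.06 and 0.189 CPM, against 4.47, 3.33, 1.55, 4.81 and 5.15 CPM in BALB/c tumours and 3.21, 2.88, 3.45, 5.06 and 3.70 CPM in BALB/c macro-mets. All BALB/c DTC libraries lay below all BALB/c macro-mets, and DTC and tumours met at 1 library each. In NSG hosts the tumours (0.632 to 2.99 CPM) and the DTC (0.71 to 1.57 CPM) overlapped, and 4 of 5 macro-mets held 3.09 to 5.04 CPM while macro-met 4 held 0.784.

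Nr3c2 fell 4.47-fold from BALB/c tumour to DTC (-2.16 ± 0.48, edgeR adjusted p = 0.00054) and was 4.23-fold higher in BALB/c macro-mets than in DTC (2.08 ± 0.47, adjusted p = 0.00112). In NSG hosts it was not called from tumour to DTC (-0.27, adjusted p = 0.716) and was 3.01-fold higher in macro-mets than in DTC (1.59 ± 0.46, adjusted p = 0.00575). Its calls between NSG macro-mets and tumours (1.32 ± 0.46, adjusted p = 0.029) and between BALB/c and NSG tumours (1.46 ± 0.46, adjusted p = 0.0202) were weak: the first was lost without the 4 gene-poor libraries (1.43, adjusted p = 0.0517), with the lung marker term (0.52, adjusted p = 0.542), in a fit of those groups only (1.26, adjusted p = 0.0616) and without NSG tumour 2, 4 or 5 or NSG macro-met 3 or 5 (1.11 to 1.17). The second was lost without BALB/c tumour 5 or NSG tumour 2, 4 or 5 (1.29 to 1.34). The step to DTC differed between strains (-1.89 ± 0.65, adjusted p = 0.0248), a call lost with the offsets (-1.60, adjusted p = 0.0524). On the log2(TPM + 1) scale, which shrinks changes of so scarce a gene, the same changes were -0.91 and 0.94 in BALB/c hosts and 0.63 from NSG DTC to macro-met, and with the lung marker term the BALB/c fall was -3.83. Within each library, the ratio of Nr3c1 to Nr3c2 in TPM had medians of 4.83, 16.2 and 3.93 for tumours, DTC and macro-mets of BALB/c hosts, and of 19.2, 40.0 and 3.56 in the matching NSG groups.

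Of the enzymes, Hsd11b1 (ENSMUSG00000016194, minus strand of chr1:193221634-193264075) encodes the reductase that regenerates active corticosterone. In BALB/c tumours it stood at 1.87, 2.13, 4.57, 1.01 and 6.25 CPM, and in BALB/c DTC at 13.1, 5.80, 1.89, 3.98 and 2.27 CPM. BALB/c macro-mets held 15.3, 20.4, 22.7, 17.9 and 17.3 CPM. NSG tumours held 3.94, 3.56, 4.24, 3.47 and 2.83 CPM, NSG DTC 6.44, 5.99, 4.94, 4.00 and 6.84 CPM, and NSG macro-mets 26.6, 24.6, 34.1, 27.0 and 29.7 CPM. Macro-mets of either strain lay above every tumour and every DTC library, and the 2 macro-met groups did not overlap each other.

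Hsd11b1 rose 5.92-fold from tumour to macro-met in BALB/c hosts (2.56 ± 0.41, edgeR adjusted p = 2.13e-05) and 7.88-fold in NSG hosts (2.98 ± 0.41, adjusted p = 4.49e-06), the largest changes of any of the 10 genes in those 2 comparisons. Against DTC it was 3.46-fold higher in BALB/c macro-mets (1.79 ± 0.39, adjusted p = 0.000891) and 5.04-fold higher in NSG macro-mets (2.33 ± 0.40, adjusted p = 2.2e-05). The rise from tumour to macro-met did not differ detectably between strains (interaction -0.41, adjusted p = 0.72). Although the macro-met groups did not overlap, edgeR did not call them apart (-0.60 ± 0.38, adjusted p = 0.474), while a fit of those groups only did (-0.60, adjusted p = 0.0207). In BALB/c DTC the highest values belonged to the 2 lung-rich libraries: without them the rise from DTC to macro-met was 2.79 (adjusted p = 3.71e-06), without library 1 alone 2.44 (adjusted p = 5.71e-06), and the difference between BALB/c and NSG DTC went from -0.06 (adjusted p = 0.92) to -1.05 (adjusted p = 0.0207). With the lung marker term the rise from BALB/c DTC was 3.16 (adjusted p = 1.46e-05) and the rises from tumour to macro-met were 1.64 in BALB/c hosts (adjusted p = 0.00117) and 1.91 in NSG hosts (adjusted p = 0.00086). From tumour to DTC the change was not called in BALB/c hosts (0.77 ± 0.39, adjusted p = 0.114). It was called with the offsets (0.98, adjusted p = 0.0223), without BALB/c tumour 5 (1.19, adjusted p = 0.0194) or without BALB/c DTC 3 (0.93, adjusted p = 0.0495), and its sign turned without the lung-rich libraries (-0.24, adjusted p = 0.621) and with the lung marker term (-1.53, adjusted p = 0.0667). In NSG hosts it was not called either (0.64 ± 0.39, adjusted p = 0.242), except in a fit of those groups only (0.57, adjusted p = 0.0301), and the lung marker term gave -0.74 (adjusted p = 0.417).

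**Figure D4:**
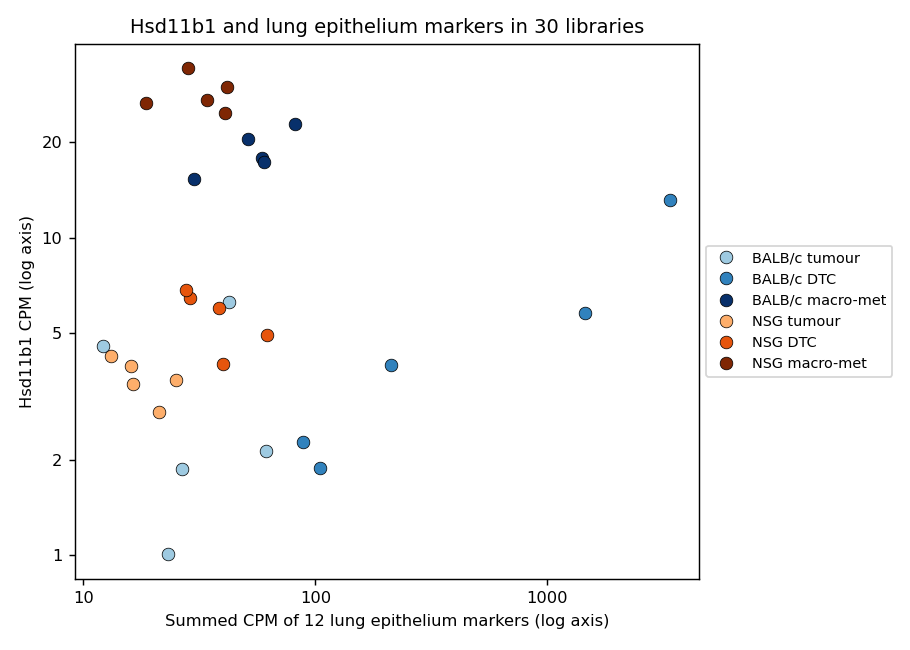
Hsd11b1 level in CPM (y axis, log scale) against the summed CPM of 12 lung epithelium markers (x axis, log scale), with 1 point per library coloured by group. The 10 macro-met libraries sit at 15.3 CPM of Hsd11b1 or more with 18.6 to 81.7 CPM of lung markers, whereas within BALB/c DTC the library with 3400 CPM of lung markers has the most Hsd11b1.

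Fibroblast markers also differed between macro-mets and other groups, though not all in 1 direction. The 12 fibroblast markers summed to 384 to 606 CPM in BALB/c macro-mets and 560 to 726 in NSG macro-mets, against 121 to 457 in BALB/c DTC, 204 to 248 in NSG DTC, 276 to 881 in BALB/c tumours and 277 to 382 in NSG tumours, and 1 of the 12 was at 0 in all tumours of either strain. From tumour to macro-met, 5 of the 12 were called higher and 5 lower in BALB/c hosts (19.6% and 18.2% of all genes), and 6 higher and 0 lower in NSG hosts (16.9% and 13.6%). The part of such cells in the Hsd11b1 result was not tested.

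Hsd11b2 (ENSMUSG00000031891, plus strand of chr8:105518755-105523988) encodes the dehydrogenase that inactivates corticosterone and so shields the mineralocorticoid receptor from it in tissues such as kidney. NSG tumours stood out with 13.0, 12.8, 10.8, 13.8 and 12.8 CPM, above every other library. BALB/c tumours were the lowest group, at 2.81, 3.76, 2.42, 1.44 and 1.95 CPM. NSG DTC held 5.41, 3.45, 5.89, 4.61 and 4.88 CPM, NSG macro-mets 8.30, 8.13, 4.87, 6.56 and 6.58 CPM, and the BALB/c lung groups 2.98 to 4.52 (DTC) and 3.59 to 5.28 CPM (macro-mets). The 2 strains thus lay farthest apart in the tumours, which also differed in the day of collection, and closer together in the lung groups.

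BALB/c tumours held 5.09-fold less Hsd11b2 than NSG tumours (-2.35 ± 0.22, edgeR adjusted p = 3.06e-09). From tumour to DTC it rose in BALB/c hosts (0.71 ± 0.21, adjusted p = 0.00754) and fell 2.61-fold in NSG hosts (-1.38 ± 0.21, adjusted p = 1.9e-05), and the steps differed (2.09 ± 0.30, adjusted p = 5.11e-06). From tumour to macro-met it rose 1.74-fold in BALB/c hosts (0.80 ± 0.21, adjusted p = 0.00366) and fell 1.84-fold in NSG hosts (-0.88 ± 0.21, adjusted p = 0.00183), and again the steps differed (1.67 ± 0.29, adjusted p = 0.000858). The BALB/c rises were lost in fits of those groups only (0.72 to DTC, adjusted p = 0.0802, and 0.75 to macro-met, adjusted p = 0.0522), and the rise to DTC also with the offsets (0.49, adjusted p = 0.082). With the lung marker term the NSG falls were not called (-1.10, adjusted p = 0.0532, and -0.66, adjusted p = 0.0755) and the BALB/c rise to DTC was 1.10 (adjusted p = 0.0345). The rise from NSG DTC to macro-met (0.51 ± 0.21, adjusted p = 0.0471) was lost with the offsets (0.10, adjusted p = 0.763), with no filter on counts (0.54, adjusted p = 0.0675), on TPM (0.32, adjusted p = 0.144), with the lung marker term (0.44, adjusted p = 0.0973) and without any one of 7 libraries (NSG DTC 2, 4 and 5, NSG macro-mets 1, 2, 4 and 5). Between the DTC groups Hsd11b2 was not called (-0.26, adjusted p = 0.354), except with the offsets (-0.73, adjusted p = 0.0128) and on log2(TPM + 1) (-0.43, adjusted p = 0.0478). It was not called on log2(TPM + 0.1), nor on log2(TPM + 1) with no filter.

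The ratio of Hsd11b1 to Hsd11b2 in TPM sets the activating enzyme against the inactivating one within a library, where no scaling between libraries enters. The trends of libraries with GC content can still enter, since Hsd11b1 has 43.33% GC and Hsd11b2 57.77%, and they were not removed from the ratio. The other TPM ratios in this text were likewise not planned and have no test. The ratio of Hsd11b1 to Hsd11b2 was added after the data were seen and is given with no test. In NSG hosts it was 0.131, 0.12, 0.17, 0.109 and 0.0958 in tumours, 0.516, 0.752, 0.363, 0.375 and 0.606 in DTC and 1.39, 1.31, 3.03, 1.79 and 1.95 in macro-mets, with no overlap between the stages. In BALB/c hosts it was 0.288, 0.246, 0.818, 0.302 and 1.39 in tumours and 1.9, 0.564, 0.181, 0.442 and 0.221 in DTC, which overlapped, and 1.85, 1.67, 2.34, 2.1 and 1.56 in macro-mets. By TPM, Hsd11b1 was the scarcer transcript of the pair in all NSG tumour and DTC libraries and the more abundant one in all macro-mets. Among BALB/c libraries the exceptions to that split were tumour 5 and lung-rich DTC 1, each with more Hsd11b1 than Hsd11b2. Which side of 1 a library falls on depends on the gene lengths behind TPM, which are not given in the sources used here. In raw counts, Hsd11b1 exceeded Hsd11b2 in NSG DTC 1, 2 and 5 (361 against 303, 363 against 209 and 241 against 172). It did not in NSG DTC 3 and 4 (286 against 341 and 222 against 256). RNA ratios say nothing of enzyme activity.

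**Figure D5:**
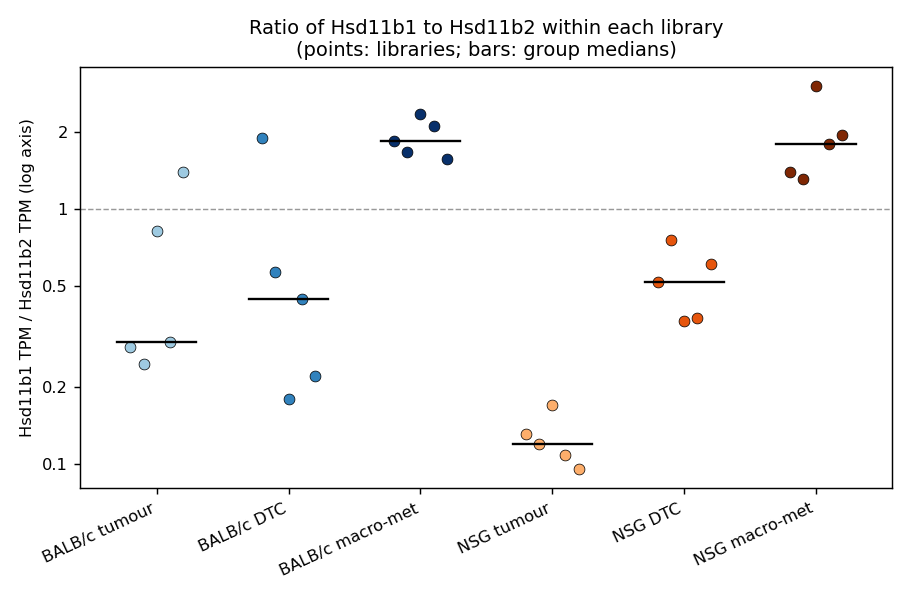
Ratio of Hsd11b1 to Hsd11b2 TPM (y axis, log scale) in the 30 libraries by group (x axis), with points for libraries, bars for group medians and a dashed line at a ratio of 1. All 10 macro-met libraries lie above 1, and all NSG tumour and DTC libraries lie below it, the NSG tumours at 0.0958 to 0.17.

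H6pd, which makes the NADPH that HSD11B1 uses in the endoplasmic reticulum, was higher in macro-mets as well. It rose from tumour to macro-met in BALB/c hosts (0.82 ± 0.15, edgeR adjusted p = 9.82e-05) and in NSG hosts (0.83 ± 0.15, adjusted p = 0.00012). Its mean was 34.9 CPM in BALB/c tumours, 38.8 in their DTC and 61.6 in their macro-mets, and 33.1, 29.7 and 58.8 CPM in the matching NSG groups. With the offsets both rises were 0.51 and still called. The list of other steroid enzymes and transporters held 14 genes, H6pd among them. Of these, 10 were tested. From tumour to macro-met, 2 were called higher and 2 lower in BALB/c hosts (37.8% of all genes were called) and 1 higher and 2 lower in NSG hosts (30.5%). From tumour to DTC, 1 was higher and 2 lower in BALB/c hosts (41.4%) and 0 higher and 2 lower in NSG hosts (25.5%). Of the other 4 steroid receptor genes on a list, Pgr was not tested, 0 were called higher and 1 lower from BALB/c tumour to DTC and none either way from NSG tumour to DTC, and the estrogen receptor gene Esr1 fell from BALB/c tumour to DTC (-1.13 ± 0.20, adjusted p = 3.99e-05).

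The chaperones hold the receptor in its steroid-binding state: STIP1 hands it from HSP70 to HSP90, p23, the product of Ptges3, stabilises the mature complex, and FKBP52, the product of Fkbp4, couples it to transport toward the nucleus. The sequences upstream of these 3 genes are shown as a description, since chaperone genes are classic targets of the heat shock factor. The part of that factor in the levels given here was not tested. Each is given 5′ to 3′ in the direction of the gene, from RefSeq on GRCm38.p6, up to 250 bases before the start and cut where an annotated exon begins, and capitals mark the letters GAANNTTC, the core of a heat shock element. Fkbp4 is taken from chr6:128438678-128438906 (minus strand, 229 bases), Ptges3 from chr10:128058732-128058953 (plus strand, 222 bases) and Stip1 from chr19:7040027-7040276 (minus strand, 250 bases).
Fkbp4: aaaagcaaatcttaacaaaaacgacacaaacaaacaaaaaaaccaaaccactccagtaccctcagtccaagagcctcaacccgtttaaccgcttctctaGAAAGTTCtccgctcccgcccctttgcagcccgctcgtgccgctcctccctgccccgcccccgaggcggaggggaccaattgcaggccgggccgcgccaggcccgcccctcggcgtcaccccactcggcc
Ptges3: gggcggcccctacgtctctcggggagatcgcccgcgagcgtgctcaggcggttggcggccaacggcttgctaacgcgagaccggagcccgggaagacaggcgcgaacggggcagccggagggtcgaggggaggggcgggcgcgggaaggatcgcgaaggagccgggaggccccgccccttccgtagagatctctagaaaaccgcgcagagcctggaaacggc
Stip1: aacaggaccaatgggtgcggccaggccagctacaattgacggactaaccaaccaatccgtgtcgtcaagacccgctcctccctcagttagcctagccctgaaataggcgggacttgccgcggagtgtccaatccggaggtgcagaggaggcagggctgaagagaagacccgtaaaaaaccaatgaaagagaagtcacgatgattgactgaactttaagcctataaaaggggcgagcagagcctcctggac

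The Fkbp4 window held the letters GAANNTTC once, 151 bases before the RefSeq start, which lies past the 21 exon bases cut from the printed end, and those of Ptges3 and Stip1 did not, where 6.69% of the 32851 windows of that length in RefSeq hold them on either strand. No match says only that these letters are not in this window. Windows were found for 7 of the 10 genes (Ncor1 with 2). Those of Hsd11b1, Nr3c2 and Ncor1 lie inside the gene as annotated here, before the start of a RefSeq transcript that begins further in, and so do not precede the outermost start. GAANNTTC also occurred once in the Nr3c2 window, 151 bases before its inner start. AGAACA, a glucocorticoid receptor half-site (16.1% of windows), occurred in 1 Ncor1 window, at 2 positions, and in no other window. TTNNGNAA, a core bound by C/EBP factors (36.8% of windows), occurred at 2 positions in the Hsd11b1 window, 155 and 124 bases before that inner start, and at 1 position each in the Nr3c2 window and in 1 Ncor1 window. Such matches are descriptions of the letters and show no binding.

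Fkbp4 (ENSMUSG00000030357, chr6:128429735-128438677) stood at 461.6, 485.1, 519.8, 583.5 and 553.9 CPM in BALB/c DTC. BALB/c tumours held 357.8, 309.9, 316.3, 324.6 and 311.6 CPM, and BALB/c macro-mets 280.5, 272.4, 248.8, 232.0 and 261.5 CPM. The 3 BALB/c groups did not overlap, with DTC on top and macro-mets at the bottom. In NSG hosts the tumours held 303.3, 372.6, 329.7, 280.0 and 288.3 CPM, the DTC 215.1, 248.6, 133.6, 259.0 and 255.4 CPM and the macro-mets 250.1, 256.8, 204.7, 229.2 and 230.8 CPM. All NSG DTC libraries lay below all NSG tumours, the opposite order to BALB/c hosts, and NSG DTC 3 was far below its group.

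Stip1 (ENSMUSG00000024966, chr19:7020702-7039967) followed a like course in BALB/c hosts. DTC held 542.7, 560.3, 549.8, 576.1 and 664.8 CPM, all above the tumours at 333.2, 289.2, 267.6, 322.7 and 278.6 CPM and the macro-mets at 358.1, 363.2, 341.3, 339.8 and 329.3 CPM. In NSG hosts the tumours (366.4 to 438.3 CPM) and DTC (375.2 to 450.4) overlapped, and all macro-mets (275.6 to 362.8) lay below both. Ptges3 (ENSMUSG00000071072, chr10:128058954-128077272) moved least, with group means from 145.6 to 195.8 CPM. Its BALB/c DTC libraries (188.8 to 206.4 CPM) lay above all BALB/c tumours (134.5 to 162) and all BALB/c macro-mets (151.8 to 163.9), and NSG DTC 3 at 251.4 CPM was far above the rest of its group (165.1 to 180.5).

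From BALB/c tumour to DTC, Stip1 rose 1.94-fold (0.96 ± 0.08, edgeR adjusted p = 4.92e-10), Fkbp4 1.61-fold (0.68 ± 0.12, adjusted p = 4.73e-05) and Ptges3 1.345-fold (0.43 ± 0.11, adjusted p = 0.00194). From BALB/c DTC to macro-met, Fkbp4 fell 2.01-fold (-1.01 ± 0.12, adjusted p = 2.24e-07) and Stip1 1.67-fold (-0.74 ± 0.08, adjusted p = 6.31e-08). In NSG hosts Fkbp4 fell from tumour to DTC (-0.50 ± 0.12, adjusted p = 0.0027) and Stip1 was not called (0.03, adjusted p = 0.858). From NSG DTC to macro-met Stip1 fell 1.23-fold (-0.30 ± 0.08, adjusted p = 0.00394) and Fkbp4 was not called (0.08, adjusted p = 0.648). The step to DTC differed between strains for Fkbp4 (1.19 ± 0.17, adjusted p = 7.17e-06) and Stip1 (0.93 ± 0.12, adjusted p = 1.64e-06), and BALB/c DTC held 2.34-fold more Fkbp4 (1.23 ± 0.12, adjusted p = 1.77e-08) and 1.42-fold more Stip1 (0.51 ± 0.08, adjusted p = 1.71e-05) than NSG DTC. Fkbp4 was lower in macro-mets than in tumours in BALB/c hosts (-0.32 ± 0.12, adjusted p = 0.0361) and in NSG hosts (-0.43 ± 0.12, adjusted p = 0.00841). Stip1 was slightly higher in BALB/c macro-mets than tumours (0.22 ± 0.08, adjusted p = 0.0418), lower in NSG macro-mets than tumours (-0.28 ± 0.08, adjusted p = 0.0128) and lower in BALB/c than in NSG tumours (-0.42 ± 0.08, adjusted p = 0.000353). From DTC to macro-met the strains differed for Fkbp4 (-1.08 ± 0.17, adjusted p = 7.46e-05) and Stip1 (-0.44 ± 0.12, adjusted p = 0.00572). That call of Stip1 was lost with the offsets (-0.33, adjusted p = 0.0755) and on TPM (-0.17, adjusted p = 0.293). From tumour to macro-met the strains differed for Stip1 (0.49 ± 0.12, adjusted p = 0.0121).

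Without the 2 lung-rich libraries, the rises in BALB/c DTC were 0.99 for Stip1, 0.76 for Fkbp4 and 0.40 for Ptges3, each still called. With the offsets, Fkbp4 rose by less (0.44, adjusted p = 0.00177) and Ptges3, which is poor in GC (43.25%), by more (0.84, adjusted p = 1.16e-05). For Ptges3 the offsets also turned 2 uncalled values in NSG hosts into calls of the opposite sign: from 0.14 to -0.40 between DTC and tumours (adjusted p = 0.0291) and from -0.21 to 0.64 between macro-mets and DTC (adjusted p = 0.000326), where TPM gave 0.34 (adjusted p = 0.0188) and -0.35 (adjusted p = 0.0109). They also gave calls for Ptges3 between BALB/c macro-mets and tumours (0.63, adjusted p = 0.00064), between the DTC groups (0.65, adjusted p = 0.000517), between the tumour groups (-0.595, adjusted p = 0.00135) and for the interactions from tumour to DTC (1.24, adjusted p = 1.46e-05) and from DTC to macro-met (-0.85, adjusted p = 0.00278). In the fit to all libraries without offsets none of these 5 was called, though the interaction from tumour to DTC was 0.29 (adjusted p = 0.146) and was called in a fit of those groups only (0.39, adjusted p = 0.0481) and without NSG DTC 3 (0.42, adjusted p = 0.0116). Its BALB/c fall from DTC to macro-met (-0.29 ± 0.11, adjusted p = 0.0363) was lost with the offsets (-0.22, adjusted p = 0.241), on TPM (-0.18, adjusted p = 0.241), without the lung-rich libraries (-0.27, adjusted p = 0.109) and without any one of the 10 libraries save BALB/c DTC 1 and BALB/c macro-met 4, and its rise to DTC was lost with the lung marker term (0.37, adjusted p = 0.181). The macro-met calls of Fkbp4 and Stip1 against tumours were small and unsteady. In BALB/c hosts that of Stip1 was lost with RLE scaling (0.15, adjusted p = 0.142), with the offsets (0.09, adjusted p = 0.48) and without any one of the 10 libraries save BALB/c tumour 1, and that of Fkbp4 on TPM (-0.24, adjusted p = 0.138), with the lung marker term (-0.19, adjusted p = 0.329) and without BALB/c tumour 1 or BALB/c macro-met 3 or 4. In NSG hosts they were lost without the gene-poor libraries (Fkbp4 -0.33, adjusted p = 0.0958, Stip1 -0.23, adjusted p = 0.0594) and with the lung marker term, while the offsets gave -0.68 for Fkbp4 and -0.46 for Stip1. The NSG fall of Fkbp4 to DTC was lost on TPM (-0.31, adjusted p = 0.0619) and with the lung marker term (-0.30, adjusted p = 0.393). On TPM, Stip1 was higher in NSG DTC than tumours (0.24, adjusted p = 0.0207) and exceeded NSG DTC by less in BALB/c DTC (0.26, adjusted p = 0.0106). A processed copy of Ptges3, Ptges3-ps on chromosome 6, had 378 to 1460 counts per library, so some reads of Ptges3 may have been assigned to it.

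Other chaperones and co-chaperones of the receptor were counted on a list of 14 genes. From BALB/c tumour to DTC, 5 were called higher and 0 lower, where 20.4% of all genes were higher and 21% lower, among them Ppp5c (1.03 ± 0.13, edgeR adjusted p = 1.84e-07), a phosphatase bound to HSP90, Ahsa1 (0.64 ± 0.11, adjusted p = 2.28e-05), which stimulates the HSP90 ATPase, and the ubiquitin ligase gene Stub1 (0.40 ± 0.13, adjusted p = 0.0118). The list's median change was 0.17, against -0.09 over all genes. From BALB/c DTC to macro-met, 1 was higher and 6 lower (16.6% and 14.2% of all genes, median -0.24 against -0.04), with Ahsa1 (-0.64 ± 0.11, adjusted p = 3.71e-05) and Ppid (-0.65 ± 0.14, adjusted p = 0.000876) among those that fell. In NSG hosts 2 were higher and 4 lower from tumour to DTC (16% and 9.55% of all genes, median -0.12 against 0.06). The inducible HSP90 gene Hsp90aa1 rose (1.77 ± 0.38, adjusted p = 0.00103) and the constitutive Hsp90ab1 fell (-0.52 ± 0.09, adjusted p = 5.58e-05). From NSG DTC to macro-met Hsp90aa1 fell by 3.15 on the log2 scale (adjusted p = 3.14e-07), from a mean of 1057 to 119 CPM. With the offsets the list gave 6 higher and 0 lower from BALB/c tumour to DTC, without Stub1 (0.13), where 3583 of the 17774 tested genes were higher and 3234 lower. From NSG tumour to DTC they gave 1 higher and 8 lower, where 1354 of all genes were higher and 3029 lower. TPM gave 4 higher and 2 lower for that step with a median of 0.09, where 5015 of all genes were higher and 786 lower with a median of 0.17. Fkbp5, a co-chaperone that competes with FKBP52 and is induced by glucocorticoids, rose from tumour to macro-met by 1.202 ± 0.123 in BALB/c hosts (adjusted p = 2.44e-08) and by 1.19 ± 0.12 in NSG hosts (adjusted p = 3.14e-08). The ratio of Fkbp5 to Fkbp4 in TPM had medians of 0.169, 0.142 and 0.493 for tumours, DTC and macro-mets of BALB/c hosts and 0.274, 0.284 and 0.768 in the matching NSG groups, and macro-mets did not overlap the other stages in either strain. This ratio was not planned and has no test, and trends with GC content were not removed from it.

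The coregulators join the receptor at DNA. NCOA1 and NCOA2 recruit histone acetyltransferases, and NCOR1 recruits histone deacetylase 3. Ncor1 (ENSMUSG00000018501, chr11:62316426-62458541) stood at 159.3, 188.8, 207.5, 172.6 and 154.0 CPM in NSG DTC, against 99.0, 88.6, 80.9, 101.9 and 89.6 CPM in NSG tumours and 52.1, 49.2, 41.5, 39.6 and 66.4 CPM in NSG macro-mets. These 3 groups did not overlap. The BALB/c tumours held 127.2, 147.9, 118.8, 104.3 and 129.3 CPM, the DTC 104.0, 66.1, 77.4, 74.0 and 25.6 CPM and the macro-mets 49.7, 47.2, 65.9, 97.8 and 75.9 CPM. BALB/c tumours lay above every BALB/c lung library, though DTC 1 at 104.0 CPM came close to tumour 4.

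Ncoa2 (ENSMUSG00000005886, chr1:13139105-13374083) ran much the same course. NSG DTC held 34.2, 46.4, 47.5, 44.9 and 37.9 CPM, above all NSG tumours (25.4 to 31.2) and all NSG macro-mets (14.7 to 29.6). BALB/c DTC held 22.8, 21.0, 21.0, 16.9 and 14.2 CPM and BALB/c macro-mets 14.7 to 29.2, all below the BALB/c tumours (30.4 to 42.0). Ncoa1 (ENSMUSG00000020647, chr12:4247362-4477182) was low in 1 group only, the BALB/c DTC, with 8.82, 5.82, 6.58, 3.87 and 2.79 CPM, where all other libraries of the series held 8.85 to 25.2 CPM.

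From BALB/c tumour to DTC the falls were 2.81-fold for Ncoa1 (-1.49 ± 0.25, edgeR adjusted p = 2.15e-05), 1.91-fold for Ncoa2 (-0.93 ± 0.17, adjusted p = 7.15e-05) and 1.81-fold for Ncor1 (-0.85 ± 0.23, adjusted p = 0.00317). Ncoa1 was higher in BALB/c macro-mets than in DTC (1.26 ± 0.25, adjusted p = 0.000243), and the others were not called there (Ncoa2 0.24, adjusted p = 0.321, Ncor1 -0.04, adjusted p = 0.91). In NSG hosts Ncor1 rose from tumour to DTC (0.94 ± 0.23, adjusted p = 0.0026) and fell 3.55-fold from DTC to macro-met (-1.83 ± 0.23, adjusted p = 2.41e-07). Ncoa2 rose (0.59 ± 0.17, adjusted p = 0.0101) and fell (-0.93 ± 0.17, adjusted p = 4.57e-05) over the same steps. Ncor1 was lower in macro-mets than in tumours in BALB/c hosts (-0.90 ± 0.23, adjusted p = 0.00255) and in NSG hosts (-0.89 ± 0.23, adjusted p = 0.00369), while Ncoa2 was lower in BALB/c hosts (-0.70 ± 0.17, adjusted p = 0.00193) and missed the call in NSG hosts (-0.34, adjusted p = 0.135), save without NSG macro-met 5 (-0.50, adjusted p = 0.0341) or with the lung marker term (-0.66, adjusted p = 0.0204). BALB/c DTC held less than NSG DTC of Ncoa1 (-1.41 ± 0.25, adjusted p = 4.05e-05), Ncoa2 (-1.14 ± 0.17, adjusted p = 5.55e-06) and Ncor1 (-1.35 ± 0.23, adjusted p = 2.62e-05).

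The step to DTC differed between the strains for Ncoa1 (-1.71 ± 0.35, edgeR adjusted p = 0.000327), Ncoa2 (-1.53 ± 0.24, adjusted p = 1.99e-05) and Ncor1 (-1.79 ± 0.32, adjusted p = 8.43e-05). The step onward from DTC to macro-met differed too, for Ncoa1 (1.21 ± 0.35, adjusted p = 0.00882), Ncoa2 (1.17 ± 0.24, adjusted p = 0.000631) and Ncor1 (1.78 ± 0.32, adjusted p = 0.000204). With the GC and length offsets, the NSG rise of Ncoa2 was lost (0.11, adjusted p = 0.556) and that of Ncor1 was 0.52 (adjusted p = 0.0282), the NSG fall of Ncoa2 was -0.31 (adjusted p = 0.0368), and the differences between DTC groups were -0.43 for Ncoa2 (adjusted p = 0.00695) and -0.81 for Ncor1 (adjusted p = 0.000829). The same offsets left the BALB/c fall of Ncoa1 at -1.44 (adjusted p = 4.61e-06), brought that of Ncoa2 to -0.58 (adjusted p = 0.00029), its macro-met value against BALB/c tumours to -0.41 (adjusted p = 0.00862) and the interactions to -0.69 for Ncoa2 and -1.19 for Ncor1. With the lung marker term the NSG rises of Ncoa2 (0.17, adjusted p = 0.768) and Ncor1 (0.27, adjusted p = 0.699) were not called, and the BALB/c falls were -2.45, -1.53 and -1.84 for Ncoa1, Ncoa2 and Ncor1, with -1.37 and -1.40 for Ncor1 between macro-mets and tumours of BALB/c and NSG hosts. The rise of Ncoa2 was also lost without the gene-poor libraries (0.52, adjusted p = 0.0808). Exons of Ncoa1 share 68 bases with 4921501I09Rik, those of Ncor1 82 with Pigl and 1 with Ttc19, and those of Nr3c2 247 with Gm10649, so reads there may be counted for either gene, since the strand setting is not given in the sources used here.

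Of 15 other coregulators, 3 were called higher and 4 lower from BALB/c tumour to DTC (20.4% and 21% of all genes, median change -0.32 against -0.09 over all genes), which is near the share over all genes, and 6 higher and 0 lower from NSG tumour to DTC (16% and 9.55%, median 0.31 against 0.06). Among them Tbl1xr1, a subunit of the NCOR complex, fell in BALB/c hosts (-1.10 ± 0.17, edgeR adjusted p = 9.43e-06) and rose in NSG hosts (0.80 ± 0.17, adjusted p = 0.000979). The chromatin remodelling ATPase gene Smarca4 rose in BALB/c DTC (0.70 ± 0.12, adjusted p = 2.19e-05), and the corepressor gene Nrip1 rose in NSG DTC (1.12 ± 0.23, adjusted p = 0.000543). BALB/c against NSG DTC gave 1 higher and 9 lower (17.1% and 21.7% of all genes, median -0.68 against -0.01), with Nrip1 (-1.68 ± 0.23) and the Mediator subunit gene Med14 (-1.28 ± 0.16) among the lower. From NSG DTC to macro-met 2 were higher and 8 lower (21.3% and 22.4%, median -0.45 against 0.02). The interaction from tumour to DTC was called for 12 of the 15, 3 positive and 9 negative (15% and 18.4% of all genes). The counts of this list moved with the GC and length offsets: with them, 1 was higher and 1 lower from NSG tumour to DTC, where neither Tbl1xr1 (-0.02) nor Nrip1 (0.36) was called, 2 were higher and 3 lower from NSG DTC to macro-met, 0 higher and 6 lower between the DTC groups, and the interaction was called for 3 positive and 4 negative. From BALB/c tumour to DTC the offsets gave 3 higher and 5 lower, and Tbl1xr1 fell by 0.56. Over all genes the offsets gave calls for 24.7% from NSG tumour to DTC (1354 higher and 3029 lower) and 39% from NSG DTC to macro-met. They gave 27.2% between the DTC groups, 27.9% for the interaction and 38.4% from BALB/c tumour to DTC.

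Over the 30 libraries, Nr3c1 was most alike in log2 CPM to Spag9 (Pearson r = 0.97), Otud4 (0.965), Cdc42bpa (0.962), Cep170 (0.96) and Lrba (0.956) among 8967 genes compared. These genes have 8096 to 21522 exonic bases and 43.1 to 46.5% GC, where Nr3c1 has 7684 and 42.2% and the medians over tested genes are 3662 and 49.74%. The part of length and GC content in this likeness was not tested. Nr3c1 and Ncor1 had an r of 0.92, Ncoa2 and Ncor1 of 0.884 and Nr3c1 and Ncoa2 of 0.87. The ratio of Nr3c1 to Ncor1 in TPM stayed between 0.253 and 0.695 in the 30 libraries, with group medians of 0.345 to 0.483. Hsd11b1 was most alike to Fbln1 (0.887), Grk5 (0.879), Txnrd3 (0.878), Sod3 (0.878) and Fech (0.863). All of these coefficients are descriptions across libraries that share groups, depth and base composition.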

How the data were processed

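RNA was sequenced from sorted 4T1-tdTomato cells in 30 libraries, 5 in each of 6 groups. The authors deposited raw read counts per gene for each library and, in a second table, TPM (transcript levels divided by gene length and scaled to a common total). Reads were processed with Trimmomatic 0.36 and STAR 2.5.2b against GRCm38/mm10, per the submitters' processing notes. The counting tool, its strand setting, the annotation release and the gene lengths behind TPM are not given in the sources used here. Total counts ran from 29832098 to 65621525, and no 2 libraries held identical counts. The reads carry no molecular identifiers, so they are not independent molecules.

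Counts were filtered with filterByExpr by group, which kept 17774 of 49315 genes with 99.969% of counts, scaled by TMM and fitted with edgeR 4.0.16 (robust quasi-likelihood, 1 mean per group, 24 residual degrees of freedom, R 4.3.3). Each of 12 comparisons (9 between groups, 3 interactions) was adjusted by Benjamini-Hochberg over all 17774 genes. CPM in correlations used a prior count of 2. The code was tested on simulated data. Gene positions, lengths and GC content came from GENCODE M21 on GRCm38, which held 49056 of the gene IDs, and upstream sequences from RefSeq on GRCm38.p6.

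Alternatives were RLE scaling, DESeq2 1.42.0, no filter on counts, offsets for GC and length (splines of 5 degrees of freedom), only the groups compared, limma 3.58.1 on log2(TPM + 1) or log2(TPM + 0.1), the same with no filter, a term for the mean log2 CPM of 23 lung markers, leaving out the 2 lung-rich libraries and leaving out each library in turn. Leaving out the 4 gene-poor libraries was added after seeing the data. The 10 genes and all lists were chosen with earlier results of these data known. The text names all 10 genes, from each other list at most 3 genes per comparison with the smallest adjusted p, and for Nr3c1 and Hsd11b1 the 5 genes with the highest correlation among those with a mean log2 CPM of 3 or more. Krt8 and Ptprc were named as checks of the sort, chosen after their values were seen.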

Additional observations from a re-analysis of the deposited data

Results flagged for a closer look

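In each group, the library farthest from the rest was compared with the range of its group, a check that chance meets in about 1 in 20 groups. Of 60 sets of 5 libraries, 4 held such a library: Nr3c2 in NSG macro-met 4 (0.784 CPM), Fkbp4 in NSG DTC 3 (134 CPM), Ptges3 in BALB/c macro-met 3 (152 CPM) and Ptges3 in NSG DTC 3 (251 CPM). NSG DTC 3 had the lowest rank correlation of all libraries between gene GC content and departure from the mean, at -0.594.

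The change between stages differed between BALB/c and NSG hosts, by edgeR's test of the interaction, in 16 cases. Over all tested genes the interaction was called for 33.4% from tumour to DTC, 28.1% from DTC to macro-met and 5.23% from tumour to macro-met. From tumour to DTC the BALB/c change minus the NSG change was -1.93 for Nr3c1, -1.89 for Nr3c2, 2.09 for Hsd11b2, 1.19 for Fkbp4, 0.93 for Stip1, -1.71 for Ncoa1, -1.53 for Ncoa2 and -1.79 for Ncor1. From DTC to macro-met it was 1.82 for Nr3c1, -1.08 for Fkbp4, -0.44 for Stip1, 1.21 for Ncoa1, 1.17 for Ncoa2 and 1.78 for Ncor1. From tumour to macro-met it was 1.67 for Hsd11b2 and 0.49 for Stip1. With the GC and length offsets, edgeR did not call Nr3c2 from tumour to DTC (-1.60, adjusted p = 0.0524). Nor did it call Stip1 from DTC to macro-met (-0.33, adjusted p = 0.0755), which limma on TPM did not call either (-0.17, adjusted p = 0.293).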

How the results depend on the processing

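The number of the 10 genes called in a comparison moved by more than 1.5 times in few settings. With the lung marker term, 0 were called between NSG DTC and tumours. The summed lung epithelium markers of those groups did not overlap (27.6 to 61.6 and 13.2 to 25 CPM). The term and the step therefore cannot be fully told apart. Without the 4 gene-poor libraries, 3 were called between NSG macro-mets and tumours. In fits of the compared groups only, 5 were called between BALB/c and NSG tumours. Between the macro-met groups, DESeq2, the fit of those groups only and leaving out the gene-poor libraries called 1 gene each. DESeq2 called 5.2% of all genes there, against 2.64% in the main fit. The main fit called 25.5% of all genes between NSG DTC and tumours, 30.5% between NSG macro-mets and tumours and 23.6% between the tumour groups. For the lung marker term, fits of the compared groups only and fits without libraries, such shares are not given. Whether those counts moved more than the calls over all genes therefore cannot be told. Leaving out 1 library at a time gave 9 to 10 calls for BALB/c DTC against tumour, 5 to 6 for BALB/c macro-met against DTC, 4 to 6 for BALB/c macro-met against tumour, 5 in every case for NSG DTC against tumour, 6 to 7 for NSG macro-met against DTC, 5 to 6 for NSG macro-met against tumour, 2 to 3 between tumours, 6 between DTC and 0 between macro-mets. The interactions gave 8 to 9, 6 and 2. A sign turned past the threshold only for Ptges3 with the GC and length offsets (-0.40 from NSG tumour to DTC and 0.64 from NSG DTC to macro-met); the cause was not tested. Of the 120 gene and comparison values, RLE scaling changed the call of 2, DESeq2 of 3, the offsets of 17 and the lung marker term of 18. No paired analysis was possible because no code number in the titles occurs in more than 1 group, and the numbers 1 to 5 used here only name libraries. Depth limits Nr3c2 most, at 11 to 310 counts per library.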
